A study of Mus musculus with 4 samples.

Results

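The genes described here are 7 lysosomal hydrolases and an inhibitor of some of them, taken by symbol from the gene list of the deposited single-cell matrix: *Ctsd*, *Ctsb*, *Ctss*, *Ctsl*, *Ctsz*, *Hexa*, *Asah1* and *Cst3*. All 8 were found among the 32285 listed genes, with between 1069 UMIs (*Asah1*) and 38919 UMIs (*Cst3*) over all cells, so that none was lost to the minimum of 50 UMIs used below. The study profiled by scRNA-seq the submandibular gland (SMG) and the sublingual gland (SLG) of untreated wild-type (WT) female C57BL/6N mice aged 6 to 8 weeks, with both glands brought into suspension by enzymes. The series lists 4 samples of this single group, but all 15707 cells of the deposited matrix carry the same barcode suffix and nothing used here ties a cell to its sample, mouse or gland, so the matrix counts as 1 sample. The label of each of the 4 samples names 2 mice, without saying whether they are the same mice, and the methods of the study name 3. Variation between mice was thus not measurable and no test was run, and every interval below is a 95% interval that covers counting error only.

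Lysosomes are acidic organelles in which proteins, sugar chains and lipids taken up or discarded by the cell are broken down. Cathepsins are their proteases. Cathepsin D is an aspartic protease, whereas cathepsins B, L, S and Z are cysteine proteases, and cystatin C, the product of *Cst3*, is a secreted inhibitor of cysteine cathepsins. *Hexa* encodes the alpha subunit of beta-hexosaminidase, which removes terminal sugars from gangliosides, and *Asah1* encodes acid ceramidase, which cleaves ceramide. Macrophages are known for high lysosomal activity, and cathepsin S is best known for processing the invariant chain of MHC class II in antigen-presenting cells. Several of these proteins can also leave the cell, and cystatin C is a regular component of saliva.

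The cells were grouped into clusters without the 8 genes and without the other lysosomal genes named below, and clusters were named from marker lists. The 6 classes compared were 921 macrophage-like, 145 other myeloid-like, 1232 lymphoid-like, 2818 duct-like, 8631 acinar-like and 1363 stromal-like cells. The macrophage-like class was led by *Apoe*, *C1qa* and *C1qb* together with the cytokine genes *Cxcl2*, *Ccl3* and *Il1b*. Leading genes of the other myeloid-like class included *Lsp1*, *S100a4*, *Napsa*, *Mgl2*, *Ccr7*, *Cd209a* and the member *Cst3*. That class was named from 14 of 15 shared myeloid markers, and 4 of 13 dendritic markers were counted in it. Median depth lay between 1867 UMIs per cell in the lymphoid-like class and 3119 in the acinar-like class. Within the acinar-like class the medians of the clusters ran from 2076.5 to 26133 UMIs. Its deepest cluster, of 2161 serous acinar-like cells, held 49.7% of all UMIs, against 81.9% for the whole class. Pooled acinar-like levels are thus mainly those of that cluster. A UMI is a tag on a single captured RNA molecule, read at its 3′ end, so UMIs are compared between genes without correction for length. A level is the UMIs of a gene per 10000 UMIs of a class. In the acinar-like and stromal-like classes 85.9% and 53.3% of UMIs belonged to 9 abundant secretory transcripts such as *Mucl2*, *Pip* and *Dcpp1*, against 9.25% to 16.2% in the other 4 classes. This lowers every level there. For the 8 genes, levels counted outside those transcripts are thus given beside each order of classes that they change. Other genes were not recounted in this way. *Mucl2* had a UMI in 100% of the cells of every class. Free RNA was estimated at 527 UMIs per droplet, with 0.164 UMIs of *Cst3* and 0.0541 UMIs or fewer of each of the other 7 genes. The estimate took all *Mucl2*, *Pip* and *Scgb2b27* UMIs of lymphoid-like cells as free. It gave free RNA the make-up of all cells summed. The mean lymphoid-like cell held 221 *Mucl2* UMIs and the median cell 119. The free amounts of the 8 genes were thus assumed in this way and not measured in empty droplets.

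Of the 8 genes, 5 were highest in macrophage-like cells (*Ctsb*, *Ctss*, *Ctsz*, *Hexa* and *Asah1*), against 9.03% of the 12331 genes with 50 or more UMIs. The same 5 were at least 2-fold above the next class, which 2.25% of genes were. The next class was the other myeloid-like class for each of them. Clustered on 10 or 30 principal components, or measured as mean UMIs per cell, 2 genes were past 2-fold in place of 5. The other 3 genes followed other orders. *Cst3* was highest in other myeloid-like cells, as were 16.5% of all genes, *Ctsd* in duct-like cells, as were 44.0%, and *Ctsl* in stromal-like cells, as were 11.0%. The median log2 ratio of the macrophage-like class to the highest other class was 1.07 over the 8 genes and -1.28 over all genes tested. The 8 genes were chosen with earlier results of these data known, so their contrast with all genes is a description only.

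**Figure D1:**
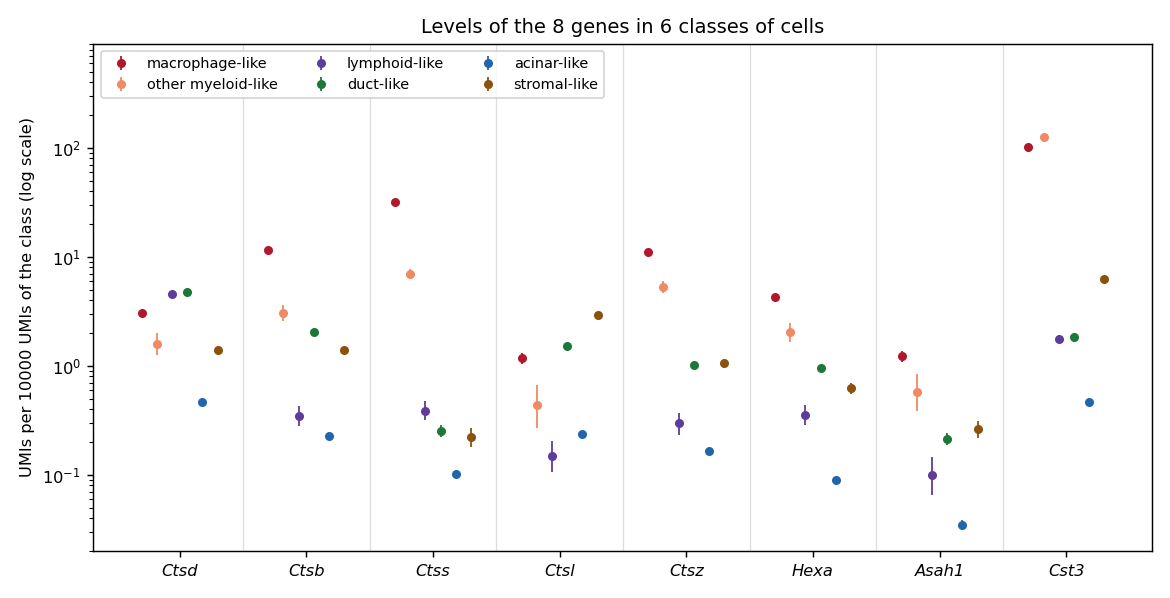
Levels of the 8 genes in 6 classes of cells, as UMIs per 10000 UMIs of the class on a log scale, with exact Poisson 95% intervals that cover counting error only. The red points (macrophage-like cells) stand highest for *Ctsb*, *Ctss*, *Ctsz*, *Hexa* and *Asah1*, but below duct-like and lymphoid-like cells for *Ctsd* and below stromal-like and duct-like cells for *Ctsl*.

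*Ctss* (chr3:95526786-95556403, plus strand) was the cathepsin with the highest level in any class. It reached 32.2 UMIs per 10000 in macrophage-like cells (31.46 to 32.96) and 7.02 in other myeloid-like cells (6.30 to 7.81). In lymphoid-like, duct-like, stromal-like and acinar-like cells it was at 0.388, 0.253, 0.221 and 0.101. The macrophage-like level was thus 4.59-fold that of other myeloid-like cells (4.11 to 5.13) and 127-fold that of duct-like cells (112 to 145). A *Ctss* UMI was found in 96.5% of macrophage-like cells, where the median cell held 7 and the highest 40, and in 85.5% of other myeloid-like cells. In lymphoid-like cells the share was 7.31%, against 1.46% for *C1qa*, a complement gene of macrophages, at a median depth of 1867 UMIs against 2141 in macrophage-like cells. With every cell thinned to 1000 UMIs the *Ctss* shares were 89.6%, 54.5% and 3.65%. Duct-like and stromal-like cells did not differ in *Ctss* beyond counting error (1.14-fold, 0.902 to 1.46). Outside the secretory transcripts acinar-like cells had 0.712, stromal-like 0.474, lymphoid-like 0.462 and duct-like 0.298, and the myeloid classes stayed far above them at 37.0 and 7.74.

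Relative to macrophage-like cells, the low *Ctss* values of duct-like, stromal-like and acinar-like cells stood close to those of the C1q genes. *C1qa*, *C1qb* and *C1qc*, summed, were at 142 UMIs per 10000 in macrophage-like cells, and duct-like, stromal-like and acinar-like cells had 0.703%, 0.670% and 0.331% of that level. For *Ctss* the same percentages were 0.785%, 0.687% and 0.312%. The 85 pericyte-like or smooth muscle-like cells (pericyte-like below) had 0 *Ctss* UMIs, a count that allows a level of up to 0.165. Within the acinar-like class, *Ctss* was at 0.289 and 0.415 in the clusters with a median of 328 and 426 genes per cell, and at 0.0146 and 0.0236 in the serous and Dcpp clusters with 1176 and 1246 genes. *C1qa* moved with it, at 0.457 and 0.850 in the former and 0.0273 and 0.0277 in the latter. Lymphoid-like cells stood apart, with 1.20% of the macrophage-like *Ctss* level and 0.151% of that of the C1q genes. Other members highest in macrophage-like cells did not lie near the C1q genes, as duct-like cells had 17.8% of the macrophage-like *Ctsb* level and 9.21% for *Ctsz*. The source of the *Ctss* RNA outside myeloid cells was not tested.

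**Figure D2:**
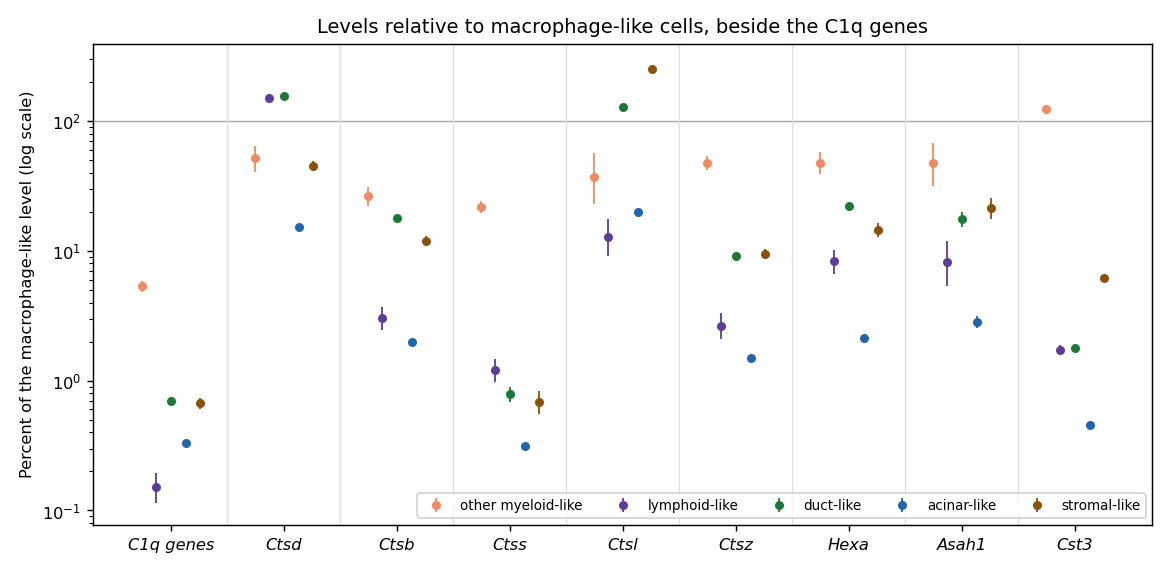
Level of each gene in 5 classes as a percent of its level in macrophage-like cells, on a log scale with exact 95% intervals (counting error only), beside the same for *C1qa*, *C1qb* and *C1qc* summed. *Ctss* in duct-like, stromal-like and acinar-like cells (0.785%, 0.687% and 0.312%) lies near the C1q genes (0.703%, 0.670% and 0.331%). In these classes *Ctsd*, *Ctsb*, *Ctsl*, *Ctsz*, *Hexa*, *Asah1* and *Cst3* lie above the C1q genes, least so *Cst3* in acinar-like cells (0.453%).

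*Ctsb* (chr14:63122462-63145923, plus strand) encodes a cysteine cathepsin with both endopeptidase and carboxypeptidase activity. Its level was 11.5 in macrophage-like cells (11.08 to 11.98), 3.05 in other myeloid-like cells (2.58 to 3.58) and 2.05 in duct-like cells (1.96 to 2.14). Stromal-like, lymphoid-like and acinar-like cells followed at 1.38, 0.349 and 0.229. All neighbours in this order were separated beyond counting error, but it depends on the denominator. Outside the secretory transcripts stromal-like cells (2.97) stood above duct-like cells (2.42) and acinar-like cells (1.62) above lymphoid-like cells (0.417). The macrophage-like level was 3.78-fold that of the next class (3.20 to 4.49), and a UMI was found in 83.6% of macrophage-like cells, 44.7% of duct-like cells and 6.74% of lymphoid-like cells. Thinned to 1000 UMIs, these shares were 62.3%, 17.2% and 3.65%. Duct-like cells had 17.8% of the macrophage-like level of *Ctsb*, against 0.785% for *Ctss*.

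*Ctsz* (chr2:174427493-174439039, minus strand) encodes cathepsin Z, a cysteine carboxypeptidase. It stood at 11.1 in macrophage-like cells (10.7 to 11.6), much like *Ctsb*, and at 5.27 in other myeloid-like cells (4.65 to 5.96). The stromal-like and duct-like levels, 1.05 and 1.03, did not differ beyond counting error (1.03-fold, 0.919 to 1.15), whereas outside the secretory transcripts they were 2.26 and 1.21. Lymphoid-like and acinar-like cells had 0.296 and 0.167, and 0.353 and 1.18 outside those transcripts. The fold of macrophage-like over other myeloid-like cells was 2.11 (1.86 to 2.41), less than the fold of *Ctsb* and of *Ctss*, whose intervals did not overlap with it. In stromal-like cells most *Ctsz* came from the fibroblast-like cluster, at 1.65, with 0.692 in endothelial-like cells.

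*Hexa* and *Asah1*, the enzymes of glycolipid and ceramide breakdown, were also highest in macrophage-like and then in other myeloid-like cells, at lower levels. *Hexa* (chr9:59539540-59565109, plus strand) was at 4.26 in macrophage-like cells (3.99 to 4.54) and 2.04 in other myeloid-like cells (1.66 to 2.48), a fold of 2.09 (1.70 to 2.60). Duct-like, stromal-like, lymphoid-like and acinar-like cells had 0.946, 0.621, 0.353 and 0.0903. Outside the secretory transcripts the stromal-like level of *Hexa* (1.33) was above the duct-like level (1.11), and the acinar-like level (0.640) above the lymphoid-like level (0.421). *Asah1* (chr8:41340197-41374773, minus strand) was at 1.22 (1.08 to 1.38) and 0.577 (0.383 to 0.833) in the myeloid classes, a fold of 2.12 (1.43 to 3.25). Its stromal-like and duct-like levels, 0.262 and 0.213, did not differ beyond counting error, and lymphoid-like and acinar-like cells had 0.0998 and 0.0344. Outside the secretory transcripts these 4 levels were 0.561, 0.251, 0.119 and 0.243. A *Hexa* UMI was seen in 58.4% of macrophage-like cells and an *Asah1* UMI in 24.9%, falling to 33.6% and 11.9% when cells were thinned to 1000 UMIs.

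The duct-like level of *Hexa* came unevenly from 4 clusters. The cluster led by *Ascl3* and *Foxi1*, transcription factors of ionocyte-type duct cells, had 1.75 UMIs per 10000 (1.61 to 1.91) over 1104 cells, close to the 2.04 of other myeloid-like cells. The 2 clusters led by kallikrein genes had 0.339 (0.267 to 0.425) and 1.05 (0.927 to 1.18), and the cluster led by *Esp4* had 0.231 (0.168 to 0.309). The kallikrein cluster with 1.05 had *Ascl3* and *Foxi1* among its 12 counted duct markers, so it was not separate from the *Ascl3* cluster in these genes. *C1qa* was lowest in the *Ascl3* cluster, at 0.114, and highest, at 1.05, in the kallikrein cluster with 1.05 of *Hexa*. *Ctsl* and *Ctsz* were likewise highest among duct-like clusters in the *Ascl3* cluster, at 2.13 and 1.49.

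*Ctsd* (chr7:142375911-142388038, minus strand), the aspartic protease, was spread across epithelial and lymphoid cells rather than gathered in macrophages. Duct-like cells had 4.78 UMIs per 10000 (4.64 to 4.92) and lymphoid-like cells 4.59 (4.33 to 4.85), which did not differ beyond counting error (1.04-fold, 0.978 to 1.11). Macrophage-like cells followed at 3.07 (2.84 to 3.31), 0.641-fold the duct-like level (0.591 to 0.695). Other myeloid-like and stromal-like cells, at 1.59 and 1.38, did not differ beyond counting error, and acinar-like cells had 0.465. Counted outside the abundant secretory transcripts, acinar-like cells had 3.29, near the 3.52 of macrophage-like cells, and stromal-like cells, at 2.97, stood above other myeloid-like cells, at 1.75. A *Ctsd* UMI was present in 71.0% of duct-like, 57.1% of lymphoid-like and 33.3% of macrophage-like cells, and in 37.5%, 38.2% and 20.2% after thinning to 1000 UMIs. Few macrophage-like cells carried much of it, as the upper quartile was 1 UMI and the highest cell had 33.

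Within the lymphoid-like class, *Ctsd* was highest in the cluster led by *Xcl1*, *Gzmc* and *Gzmb*, genes of cytotoxic lymphocytes. That cluster of 1042 cells had 5.05 UMIs per 10000 (4.75 to 5.37). The 94 cycling lymphoid-like cells had 3.71 (3.07 to 4.43) and the 96 cells led by *Cd3d* had 1.44 (0.979 to 2.05). Among duct-like clusters, the kallikrein-led clusters had 4.80 and 5.73, the *Ascl3* cluster 5.59 and the *Esp4* cluster 2.18 (1.98 to 2.40). With lymphoid-like cells that held a UMI of a duct marker left out, the log2 ratio of duct-like to lymphoid-like cells was -0.08 in place of 0.06, so the order of these classes was not settled. *Ctsd* shares its strand and part of its span with the gene *Gm49369*, and reads in the shared part could be counted for either or neither.

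*Ctsl* (chr13:64359337-64370890, minus strand), a cysteine endopeptidase, was highest in stromal-like cells at 2.96 (2.80 to 3.12), followed by duct-like cells at 1.52 (1.44 to 1.60) and macrophage-like cells at 1.17 (1.03 to 1.32). Other myeloid-like, acinar-like and lymphoid-like cells had 0.432, 0.235 and 0.150. Stromal-like cells were 1.95-fold above duct-like cells (1.81 to 2.10), a log2 ratio of 0.96 that ranged from 0.85 to 2.76 over the alternatives and was 1.83 outside the secretory transcripts. Counted that way, acinar-like cells (1.67) also stood above macrophage-like cells (1.35). Most *Ctsl* of stromal-like cells came from the fibroblast-like cluster, whose 569 cells had 6.13 UMIs per 10000 (5.76 to 6.52) against 1.04 in endothelial-like (0.921 to 1.17) and 1.65 in pericyte-like cells (1.12 to 2.36). Counted outside the secretory transcripts the fibroblast-like level was 12.4. The 235 basal-like cells, which lie outside the 6 classes, had 2.68 (2.43 to 2.96).

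**Figure D3:**
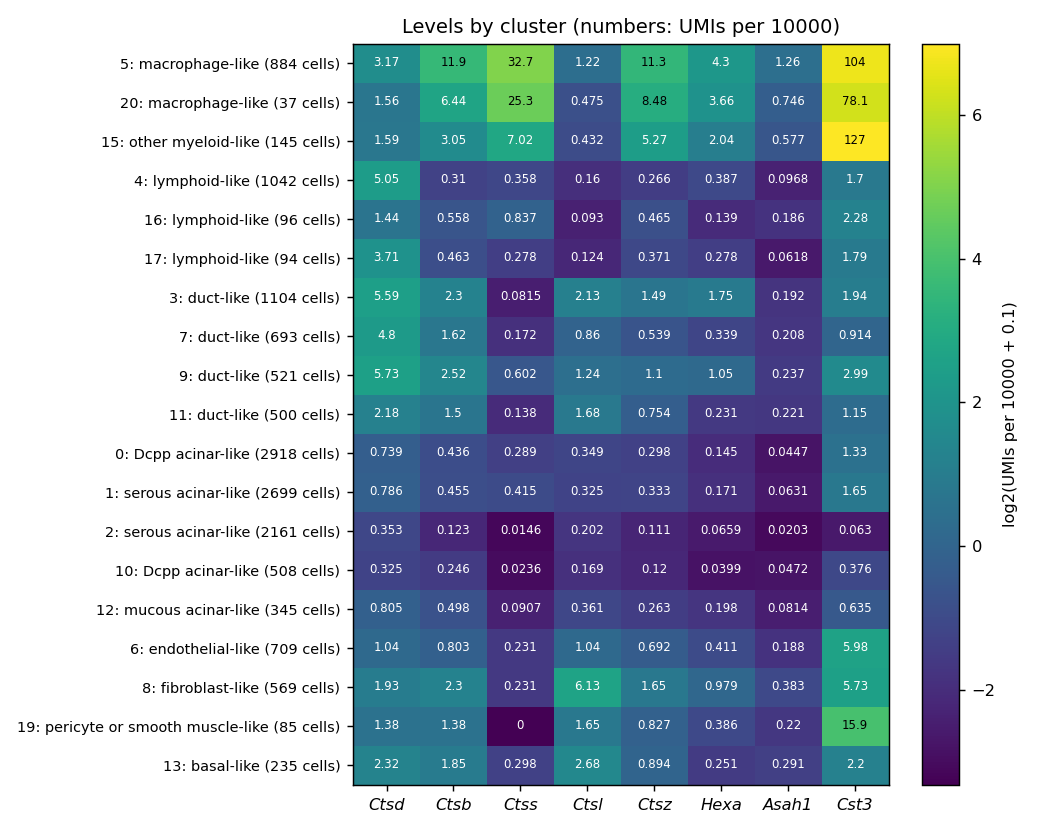
Level of each gene in the 19 named clusters, printed as UMIs per 10000 and coloured by log2(level + 0.1). The top 3 rows, the myeloid clusters, hold the high values of *Ctss*, *Ctsb*, *Ctsz* and *Cst3*, whereas *Ctsd* is high in the cytotoxic lymphoid-like cluster and 3 duct-like clusters, and *Ctsl* peaks at 6.13 in fibroblast-like cells.

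The promoters of the members were read for the E-box CACGTG, the core of the motif bound by TFEB and related factors, and for TCACGTGA, which contains it. RefSeq promoters, from 250 bases before to 50 after the start, were at hand for 6 of the 8 genes, without *Ctsb* and *Asah1*. CACGTG, which reads alike on both strands, was found in 2 of the 6, against 8.09% of 27025 genes, and TCACGTGA in 1 of the 6, against 1.12%. Among 38 other lysosomal hydrolase genes with a promoter, 10 (26.3%) held CACGTG and 3 (7.89%) held TCACGTGA. The windows around the matches are shown because the genes with matches, *Ctsd* and *Ctsl*, are those that were not highest in myeloid cells. They are on the minus strand of GRCm38.p6 from RefSeq, 5′ to 3′, with CACGTG in capitals, at chr7:142388048-142388077, chr7:142387908-142387937 and chr13:64370739-64370768. The first lies outside the *Ctsd* gene of GENCODE M21, and the other two lie in an exon and UTR of that annotation.
Ctsd, motif 245 bases before the start: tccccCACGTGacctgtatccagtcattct
Ctsd, motif 98 bases before the start: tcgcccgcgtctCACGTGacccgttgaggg
Ctsl, motif 236 bases before the start: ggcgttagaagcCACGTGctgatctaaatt
The second *Ctsd* window holds TCACGTGA. A match describes these letters in these windows and is not a measured binding site. A link between the motif and the classes in which a gene was high was not tested. *Ctsb* and *Asah1*, highest in macrophage-like cells, had no promoter here.

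The mix of transcripts of the 5 cathepsin genes described here, which does not depend on the total of a cell, differed between the classes. Other cathepsin genes were not counted in it. Of 13015 cathepsin UMIs in macrophage-like cells, *Ctss* made up 54.5% (53.6 to 55.3), *Ctsb* 19.5%, *Ctsz* 18.8%, *Ctsd* 5.19% and *Ctsl* 1.98%. Other myeloid-like cells had less *Ctss*, 40.5% (37.1 to 43.9), and more *Ctsz*, 30.4% (27.3 to 33.6). Lymphoid-like cells had mainly *Ctsd*, 79.5% (77.4 to 81.5). *Ctsw*, which was not counted, had a higher level in them, 10.1 against 4.59 for *Ctsd*. Of the 5 genes *Ctsd* also had the largest share in duct-like and acinar-like cells, at 49.6% and 38.9%. *Ctsl* led in stromal-like cells, at 42.2% (40.5 to 44.0), and made up 50.05% in the fibroblast-like cluster. *Ctsb* took between 17.6% and 21.3% in every class but the lymphoid-like class, where it had 6.05%.

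**Figure D4:**
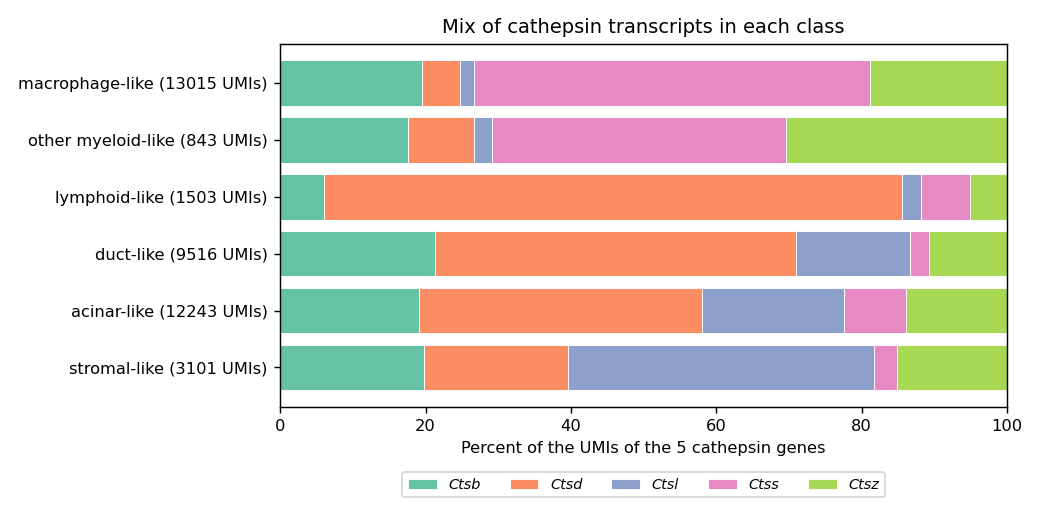
Share of each cathepsin gene among the UMIs of the 5 cathepsin genes in each class, with the number of those UMIs beside the class. *Ctss* is the widest band in macrophage-like and other myeloid-like cells, *Ctsd* in lymphoid-like, duct-like and acinar-like cells, and *Ctsl* in stromal-like cells.

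*Cst3* (chr2:148871722-148875692, minus strand) was the most abundant of the 8 genes, with 38919 UMIs over all cells. Other myeloid-like cells had 127 UMIs per 10000 (123 to 130) and macrophage-like cells 102 (101 to 104), a fold of 1.24 (1.20 to 1.27). At a clustering resolution of 0.8, and with the 10% highest Scrublet scores left out, no other myeloid-like class formed and macrophage-like cells were highest. Stromal-like cells had 6.29 (6.06 to 6.53), and duct-like and lymphoid-like cells, at 1.84 and 1.76, did not differ beyond counting error. Acinar-like cells had 0.463, but 3.28 outside the secretory transcripts, against 2.17 in duct-like and 2.10 in lymphoid-like cells. A *Cst3* UMI was found in 99.9% of macrophage-like and 99.3% of other myeloid-like cells. Their distributions differed, with a median of 23 UMIs and a highest value of 82 in macrophage-like cells, and a median of 18 and a highest value of 279 in other myeloid-like cells. The higher level of the latter class thus came from part of its cells, and the upper quartiles were 32 and 42. *C1qa* was seen in 11.7% of other myeloid-like cells, and the C1q genes stood there at 5.34% of the macrophage-like level.

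Among stromal-like cells, *Cst3* was at 15.9 in pericyte-like (14.1 to 17.9), 5.98 in endothelial-like (5.69 to 6.29) and 5.73 in fibroblast-like cells (5.37 to 6.10). In these 3 clusters 14.2%, 57.8% and 50.5% of UMIs were abundant secretory transcripts, and outside them the levels were 18.6, 14.2 and 11.6. The share of cells with a *Cst3* UMI was 64.0% in the stromal-like class, 28.6% in lymphoid-like cells and 26.2% in acinar-like cells, and 41.7%, 14.2% and 10.6% with cells thinned to 1000 UMIs. In the acinar-like clusters of low gene number *Cst3* was at 1.33 and 1.65, where *C1qa* was also high, and in the deep serous cluster at 0.0630. The part of macrophage RNA in those 2 clusters was not tested.

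*Cst3* was then set against *Ctsb*, *Ctsl*, *Ctss* and *Ctsz*, called the cysteine cathepsins below, in the same cells. This ratio does not depend on the total of a cell, but it depends on which cathepsins are counted. *Ctsc*, *Ctsh* and *Ctsw* were not counted. *Ctsc* and *Ctsh* had levels of 7.97 and 6.82 in macrophage-like cells, and 2.43 and 5.79 in other myeloid-like cells. The lymphoid-like level of *Ctsw* was 10.1, above the 1.76 of *Cst3*. With these genes counted, the ratios below would be lower. Macrophage-like cells had 1.83 *Cst3* UMIs per UMI of the 4 cathepsins (1.79 to 1.87), and other myeloid-like cells had 8.02 (7.44 to 8.66), or 4.53 and 5.22 with 10 and 30 principal components. Lymphoid-like and stromal-like cells had 1.49 (1.29 to 1.73) and 1.12 (1.06 to 1.18). The stromal-like ratio fell below 1 at a resolution of 0.3 (0.707), with 30 principal components (0.685), with the filter on cells (0.696) and with the 10% highest Scrublet scores left out (0.698). The ratio was below 1 in duct-like cells, at 0.379 (0.359 to 0.401), and in acinar-like cells, at 0.634 (0.611 to 0.658). With the estimated free RNA taken away these became 0.305 and 0.519, and without the acinar-like clusters of low gene number the acinar-like ratio was 0.281. The deep serous acinar-like cluster had 0.140 (0.125 to 0.155). Stromal-like cells were divided, with 4.13 in pericyte-like (3.17 to 5.44), 2.16 in endothelial-like (1.98 to 2.37) and 0.555 in fibroblast-like cells (0.512 to 0.601). The 37 cycling macrophage-like cells had 1.92 (1.74 to 2.12), which was not separated from the 1.82 of the 884 other macrophage-like cells.

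**Figure D5:**
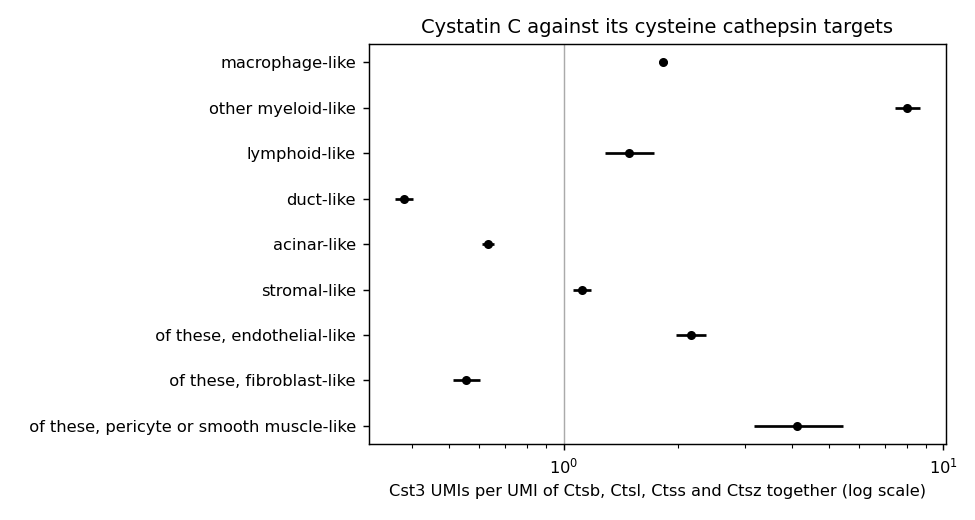
*Cst3* UMIs per UMI of *Ctsb*, *Ctsl*, *Ctss* and *Ctsz* together, on a log scale with exact binomial 95% intervals (counting error only), by class and, for stromal-like cells, by cluster. Other myeloid-like cells stand highest at 8.02, and duct-like, acinar-like and fibroblast-like cells lie below 1.

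Most macrophage-like cells held UMIs of several of the 8 genes. Whether the genes were seen together more often than their separate shares of cells would give was not tested. The median cell held UMIs of 5 of the 8 genes, 326 of 921 cells (35.4%) held 6 or more, and 0 cells held none, which allows a share of up to 0.326%. The median was 4 genes in other myeloid-like cells, 2 in duct-like and stromal-like cells and 1 in lymphoid-like and acinar-like cells, whose depths differ. Together the 8 genes took 167 of every 10000 UMIs in macrophage-like cells, 61.3% of them *Cst3*, against 146 in other myeloid-like cells, 86.4% of them *Cst3*. The cycling macrophage-like cells, led by *Stmn1*, *Birc5* and *Top2a*, had lower levels of *Ctsb* (6.44, 5.21 to 7.88) and *Cst3* (78.1, 73.7 to 82.8) than the remaining macrophage-like cells (11.9 and 104), whereas *C1qa* was at 55.1 and 58.2.

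Over the 19 named clusters, *Ctsz*, *Asah1*, *Ctsb* and *Hexa* had the most similar patterns among the 8 genes. Pearson's r of log2 levels was 0.96 between *Ctsz* and *Asah1*, 0.95 between *Ctsb* and *Ctsz*, and 0.94 between *Ctsz* and *Hexa*. It was 0.22 between *Ctsd* and *Ctss* and -0.04 between *Ctss* and *Ctsl*. Among all 9536 genes with 200 or more UMIs, *Psap*, the precursor of the sphingolipid activator proteins, was among the 3 most similar genes for *Ctsb*, *Ctsz*, *Hexa* and *Asah1* (r of 0.91 to 0.97). *Ctss* was most like the cytokine gene *Tnf* and the activation marker gene *Cd83* (0.98 each), *Ctsl* most like *Gaa*, lysosomal alpha-glucosidase (0.97), *Ctsd* most like *Grina* (0.96), and *Cst3* most like *Rap2a* (0.95). These correlations are over clusters of 1 library that differ in depth and share free RNA, and they are a description.

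Other lysosomal genes show how far the pattern of the 8 extends. Their levels and folds, here and in the paragraphs below, were not recounted outside the abundant secretory transcripts. Among 13 other lysosomal proteases with enough counts, 7 were highest in macrophage-like cells and 4 were past 2-fold there. Over all genes tested these shares were 9.03% and 2.25%. *Lgmn*, the asparaginyl endopeptidase legumain, was at 5.21 in macrophage-like cells and 5.06-fold above the next class (3.81 to 6.86). *Ctsc*, which activates serine proteases of granules, was at 7.97 there, and *Ctsh*, an aminopeptidase, at 6.82 in macrophage-like and 5.79 in other myeloid-like cells. *Ctsw*, a cathepsin of cytotoxic lymphocytes, was at 10.1 in lymphoid-like cells, 28.8-fold above the next class (18.0 to 49.6), and *Ctsk*, a collagen-degrading cathepsin, was at 0.339 in stromal-like cells, 24.9-fold above it (8.34 to 122).

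Of 21 other glycosidases and sulfatases, 10 were highest in macrophage-like cells and 4 past 2-fold, against 9.03% and 2.25% of all genes tested. *Gusb* and *Man2b1*, which remove glucuronic acid and mannose, were at 1.73 and 2.38 in macrophage-like cells. Among 13 lipases, phosphatases and sphingolipid activators, 6 were highest in macrophage-like and 4 in other myeloid-like cells. Of all genes tested, 9.03% and 16.5% were. *Gm2a*, which presents GM2 ganglioside to the *Hexa* product, was at 4.96 in other myeloid-like and 1.26 in macrophage-like cells, the reverse of *Hexa*. *Naaa*, an amidase related to acid ceramidase, was at 1.59 in other myeloid-like cells, 8.52-fold above the next class (5.76 to 12.8). *Psap* reached 15.3 and 13.5 and *Npc2*, a cholesterol carrier, 7.91 and 11.5 in other myeloid-like and macrophage-like cells. The median log2 ratio of the macrophage-like class to the highest other class was 0.22 for the proteases, -0.11 for the glycosidases and -0.18 for the lipid enzymes, against 1.07 for the 8 genes, and these lists were chosen with earlier results known.

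Of the other cystatins and stefins, 18 were listed in the matrix and 4 had 50 or more UMIs. *Cst7*, known from cytotoxic lymphocytes, was at 1.40 in lymphoid-like cells, 22.7-fold above the next class (7.72 to 111). *Cstb*, a stefin of the cytosol, was at 2.34 in macrophage-like and 2.16 in other myeloid-like cells (1.08-fold, 0.875 to 1.35) and 1.06 in duct-like cells. *Cst6* and *Cst10* stayed at or below 0.0344 in every class. *Cst3*, with 38919 UMIs, was counted more often than any of them, the next being *Cstb* with 4117 UMIs in the 6 classes.

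Genes of the lysosomal membrane, of enzyme sorting and of acidification differed in their leading class. The secretory transcripts lower the acinar-like and stromal-like levels of these genes, so folds can be smaller, and the next class another, outside them. Over all genes tested, 9.03% were highest in macrophage-like cells and 2.25% were past 2-fold there. Of 15 lysosomal membrane genes, 9 were highest in macrophage-like cells and 2 were past 2-fold, *Cd68* at 3.99 and *Cd63* at 5.90. *Cd63* was at 2.67 in duct-like and 2.24 in stromal-like cells, and 53.3% of stromal-like UMIs were abundant secretory transcripts. Its place past 2-fold thus depends on the denominator. *Cd164* was highest in duct-like cells at 2.90. Of 11 sorting and regulatory genes, 3 were highest in macrophage-like cells, including *Grn* (progranulin) at 2.44. *Sort1* and *Tfeb* were 3.07-fold (2.40 to 3.98) and 2.90-fold (2.13 to 4.03) higher in duct-like cells than in the next class. *Sort1* was at 0.506 in duct-like and 0.0626 in acinar-like cells, and 85.9% of acinar-like UMIs were abundant secretory transcripts. The vacuolar ATPase acidifies lysosomes and, in some epithelia, the cell surface. Of 17 of its subunits, 10 were highest in duct-like cells and 5 past 2-fold. Over all 12331 genes tested, 44.0% were highest in duct-like cells and 1840 genes were past 2-fold there. *Atp6v1b1* and *Atp6v0d2*, isoforms of specialised epithelia, were 21.3-fold (12.1 to 41.4) and 13.02-fold (10.4 to 16.4) higher there, whereas *Atp6v0c*, the proteolipid ring subunit, was highest in macrophage-like cells at 10.3.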

How the data were processed

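The single deposited table holds UMI counts per gene and barcode, which the authors left unnormalized, for 32285 genes and 15707 barcodes. Per the submitters' processing notes Cell Ranger 6.0.1, Seurat 4.1.1 and mm10 were used, on 10x Genomics 3′ libraries. Their gene annotation is not given in the sources used here. Depth ran from 1374 to 141509 UMIs per cell around a median of 2608. Every barcode was kept, because Scrublet (scanpy 1.11.5) marked 0 doublets and so had not worked.

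Seurat 5.3.0 in R 4.3.3 (Matrix 1.6.5) log-normalized the counts (scale factor 10000). Louvain clustering at a resolution of 0.5 used 20 principal components of 2000 variable genes less 20 lysosomal genes. A marker was counted for a cluster if 25% or more of the cells held it at a level higher than elsewhere, and a name took 3 or more markers and 33% of a list. The limits for mixed clusters were set after the clusters were seen, and 3 of 22 clusters (362 cells, 2.30%) stayed unnamed. Members and lists were chosen with earlier results of these data known.

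Levels carry exact Poisson, ratios exact conditional binomial and shares Clopper-Pearson 95% intervals, which treat UMIs as independent and cover no variation between mice. Named genes are the 8 members, up to 4 genes of each list with the highest level, up to 3 with the largest fold among those of 100 or more UMIs, and genes most like a member by Pearson correlation of log2(level + 0.1). An item that this rule takes is not reported here. Software was Python 3.11.15, scipy 1.17.1, numpy 2.4.6, matplotlib 3.10.9 and pandas 2.3.3. Only levels, folds and their intervals were tested on simulated data, drawn with independent UMIs as the intervals assume. Clustering, cluster names and the free RNA estimate were not simulated. Positions come from GENCODE M21 on GRCm38. There *Ctsb*, *Ctsz* and *Hexa* overlap genes of the opposite strand, *Ctss* and *Ctsl* overlap processed pseudogenes, and no 90-base window in the last 300 bases of a member's transcripts occurred in another gene. The alternatives varied resolution, principal components, removal of the lysosomal genes, cell and doublet filters, the measure of level, free RNA and depth. The matrix has 0 unused columns.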

Additional observations from a re-analysis of the deposited data

How the results depend on the processing

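Of the 8 genes, 5 or 6 were highest in macrophage-like cells under all 15 alternatives, 3 of them chosen after seeing the data. The number at least 2-fold above the next class was 5, and 2 with 10 principal components, with 30 principal components and with mean UMIs per cell. With 10 or 30 principal components the other myeloid-like class held 224 or 181 cells in place of 145. At a resolution of 0.8, and with the 10% highest Scrublet scores left out, no other myeloid-like class formed. There the log2 ratio of *Cst3* in macrophage-like cells to the highest other class turned from -0.31 to 3.00 and 3.14, since stromal-like cells were then compared, and the ratio of *Cst3* to the cysteine cathepsins in macrophage-like cells went from 1.83 to 2.18 and 2.19. In other myeloid-like cells that ratio was 4.53 and 5.22 with 10 and 30 principal components, against 8.02. The log2 ratio of *Ctsd* in duct-like to lymphoid-like cells, 0.06, ranged from -0.23 to 0.79, so its sign was not settled. *Ctsl* stayed highest in stromal-like over duct-like cells, with a log2 ratio of 0.85 to 2.76 against 0.96, and 1.83 outside the secretory transcripts. Leaving out macrophage-like cells with a UMI of a duct, fibroblast or endothelial marker kept 181 of 921 cells. With the acinar-like clusters of low gene number left out, the *Cst3* ratio of acinar-like cells was 0.281 in place of 0.634. Counts were low for *Ctsl* and *Asah1* in other myeloid-like cells, at 21 and 28 UMIs. No paired analysis was possible because the matrix is 1 sample of 1 group and no test was run.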

Other observations

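Clusters outside the 6 classes also held the 8 genes. The 233 unnamed cells led by *Smgc*, a secretory gene of the developing and female submandibular gland, had 3.69 UMIs of *Ctsd* per 10000 (3.31 to 4.10) and 1.34 of *Ctsl* (1.12 to 1.60), but 0.0213 of *Ctss* and 0.702 of *Cst3*. *Ctsd* made up 54.1% of their cathepsin UMIs, and their ratio of *Cst3* to the cysteine cathepsins was 0.224 (0.169 to 0.294). The 35 unnamed cells that carried both lymphoid and duct markers had *Ctsd* at 6.86 (5.63 to 8.27), and a *Ctsd* UMI was found in 97.1% of them. In the 94 cells led by haemoglobin genes each of the 8 genes was at 0.157 or lower. The 235 basal-like cells had cathepsins led by *Ctsl*, at 33.3% of their cathepsin UMIs, ahead of *Ctsd* at 28.9%.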
